A study of Homo sapiens with 6 samples.

Results

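The 10 forkhead transcription factor genes described here are FOXS1, FOXC1, FOXC2, FOXD1, FOXF1, FOXF2, FOXO1, FOXO3, FOXP1 and FOXQ1. They were chosen by symbol from the 58735 genes of the count table, which holds 49 forkhead genes in all, and the choice was made with their change under TGF-β1 known: FOXS1 was selected on having the largest increase among well-counted genes. For that reason their own changes are given as a description, and so is any threshold result printed for them. RNA was sequenced in 6 libraries, 3 in each group, from LX-2 cells, a human line of hepatic stellate origin with the genotype label WT. All 6 came from cells transfected with siRNA, a small interfering RNA, directed at the cytosine methyltransferase gene NSUN2. The untreated group had no TGF-β1, and its harvest time and any vehicle it received are not stated in the sample labels. The TGF-β1 group was given TGF-β1 at 5 ng/ml from 48 hours after transfection and harvested 24 hours later. Cells without the siRNA were not analysed here, so the values describe the response to TGF-β1 in siRNA-transfected cells of a single line.

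Forkhead factors bind DNA through a winged-helix domain whose recognition helix enters the major groove. FOXC, FOXD, FOXF and FOXQ members are tissue-patterning regulators, many of them expressed in mesenchyme, FOXS1 is known from pericytes and other mural cells and from peripheral neurons, FOXO factors carry insulin and growth factor signals because AKT phosphorylation moves them out of the nucleus, and FOXP1 acts mainly as a repressor. TGF-β1 signals through receptor kinases to SMAD proteins, which bind DNA together with partner factors, FOXO and FOXH1 among them, and it turns stellate cells into matrix-producing myofibroblasts.

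Library totals were 25828504 to 30034762 counts, and the labels call the 3 libraries of each group biological replicates. NSUN2 itself had 81.3 to 84.3 CPM (reads per 1e6 reads of the library, scaled by TMM normalisation for its composition) in untreated libraries and 96.9 to 102.6 CPM with TGF-β1, which does not test the knockdown because every library carries the siRNA. The stellate markers COL1A1, COL3A1, VIM, PDGFRB, GATA4 and HAND2 were present, with a summed level over the 9 markers of 2569 to 2616 CPM untreated and 5065 to 5709 CPM with TGF-β1, whereas LRAT had 0 counts and DES and PDGFRA were below 0.4 CPM. That sum is mostly COL1A1, and GATA4 (27.6 to 16.2 CPM) and HAND2 (6.34 to 3.80 CPM) had lower means with TGF-β1. Of the other liver cell types, hepatocyte markers summed to 23.6 to 27.3 CPM untreated and 21.3 to 23.1 CPM with TGF-β1, nearly all SERPINA1, with CYP3A4 and TTR at 0. Endothelial markers summed to 1.82 to 2.72 and 1.58 to 2.26 CPM, macrophage markers to 11.2 to 14.4 and 14.7 to 17.8 CPM with PTPRC near 0, CSF1R higher (4.33 to 12.3) and CD14 lower (8.48 to 3.70) in the means, and cholangiocyte markers, mostly SOX9, to 70.9 to 72.6 and 56.7 to 58.4 CPM. The part of these shifts in the forkhead values was not tested. In bulk RNA, fewer cells expressing a gene and less of its RNA per cell cannot be told apart.

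A stretch of 14 codons that overlaps the recognition helix and extends beyond it is shown for 9 of the genes. It displays how near each stands to FOXS1 over these codons, not only at the residues that contact DNA. The sequences were read from GENCODE 29 transcripts (hg38) in the coding sense, and capitals mark bases that differ from FOXS1.
FOXS1: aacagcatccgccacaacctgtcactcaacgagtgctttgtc
FOXC1: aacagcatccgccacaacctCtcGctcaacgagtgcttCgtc
FOXC2: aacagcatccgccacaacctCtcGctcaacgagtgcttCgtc
FOXD1: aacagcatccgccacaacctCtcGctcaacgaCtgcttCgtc
FOXF1: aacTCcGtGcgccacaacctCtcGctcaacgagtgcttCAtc
FOXF2: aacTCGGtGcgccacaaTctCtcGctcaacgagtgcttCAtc
FOXQ1: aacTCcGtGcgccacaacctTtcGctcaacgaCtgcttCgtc
FOXO3: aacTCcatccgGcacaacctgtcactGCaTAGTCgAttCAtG
FOXO1: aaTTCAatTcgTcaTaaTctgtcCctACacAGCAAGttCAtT
FOXC1 and FOXC2 differed from FOXS1 at 3 of 42 bases and at no encoded residue, and the 2 FOXC stretches were identical to each other. FOXD1 differed at 4 bases and 1 residue, FOXF1 and FOXQ1 at 8 bases and 2 residues, and FOXF2 at 10 bases and 2 residues. FOXO3 and FOXO1 differed at 14 and 20 bases and each at 4 residues. On the genome the FOXS1 stretch lies at chr20:31845312-31845353 on the minus strand, within the single exon of the gene, and the FOXO1 stretch at chr13:40560819-40560860 on the minus strand.

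FOXS1 went from near absence to a moderate level. Its gene (ENSG00000179772, chromosome 20, 31844301 to 31845619, minus strand, hg38) has 1 exon and shared no 50-base window with any other annotated gene. The untreated libraries held 4, 1 and 2 counts, or 0.128, 0.0328 and 0.0713 CPM. The TGF-β1 libraries held 344, 335 and 324 counts, or 13.9, 11.7 and 12.5 CPM. Every TGF-β1 library stood far above every untreated library, and the 3 TGF-β1 values lay close together. The group means were 0.0773 ± 0.0478 and 12.7 ± 1.12 CPM (SD, n = 3 each). After normalisation, the 1003 counts were 162.2 times the 7 (exact 95% interval for counting error 78.4 to 404.5), an interval made wide by the 7 untreated counts. The fitted log2 fold change was 7.27 ± 0.28 (SE), the largest among the 11134 tested genes averaging 5 CPM or more, where PMEPA1 was next at 5.70. That place restates how FOXS1 was selected, and FOXS1 reached the 5 CPM mean through the TGF-β1 libraries alone. Among all 17215 tested genes FOXS1 was in place 4, behind the sparsely counted ODAPH at 9.77, AC097634.1 at 7.63 and KANK4 at 7.31. As FPKM, the deposited level per length, FOXS1 stood at 0.0570 ± 0.0354 untreated, lowest of the 10 genes, and at 9.37 ± 0.83 with TGF-β1, the second highest.

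Across all tested genes, edgeR's quasi-likelihood test, at a threshold of 0.05 after Benjamini-Hochberg adjustment, placed 20.2% higher and 18.7% lower with TGF-β1. With library totals alone in place of TMM factors, 27.4% of calls were higher against 51.8% with TMM. The 3 TGF-β1 values lay all above the untreated ones in 24.1% of genes and all below in 23.3%. Beside these shares, 7 of the 10 genes passed the threshold as higher, 1 as lower and 2 did not pass; 7 had all TGF-β1 values above and 1 all below. Because the genes were selected on this contrast, nothing is read from the counts. The median log2 fold change of the 10 genes was 0.70, against -0.01 over all tested genes.

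**Figure D1:**
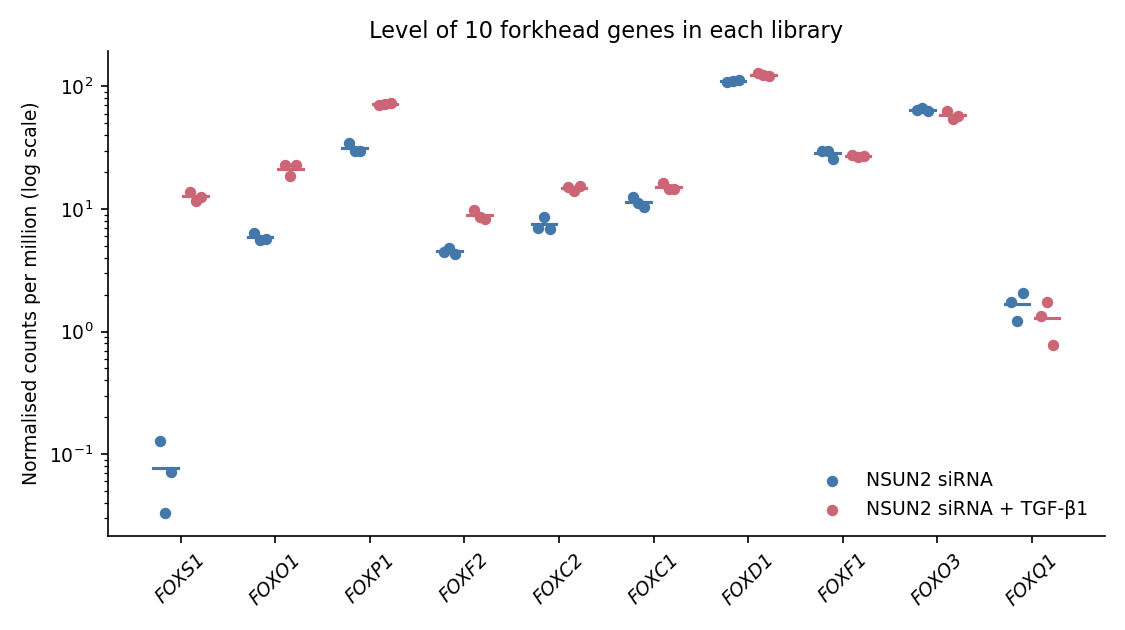
TMM-normalised CPM of the 10 genes in each library on a log axis, ordered by log2 fold change; points are libraries (3 per group), blue without and red with TGF-β1, and horizontal bars are group means. FOXS1 lies below 0.13 CPM in every untreated library and above 11 CPM in every TGF-β1 library, whereas the points of FOXF1 and FOXQ1 overlap between the groups.

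The FOXC pair, regulators of vascular and mesenchymal development, was higher with TGF-β1 in unequal measure. FOXC2 (ENSG00000176692, chromosome 16, 86566829 to 86569728, plus strand) had 6.96, 8.59 and 6.88 CPM untreated and 15.1, 14.01 and 15.3 CPM with TGF-β1, without overlap. Its means were 7.48 ± 0.96 and 14.8 ± 0.69 CPM, a log2 fold change of 0.98 ± 0.12 (SE). FOXC1 (ENSG00000054598, chromosome 6, 1609972 to 1613897, plus strand) had 12.5, 11.2 and 10.3 CPM untreated and 16.4, 14.6 and 14.5 CPM with TGF-β1. The groups did not overlap, but the highest untreated FOXC1 value was not far below the lowest TGF-β1 value, and the log2 fold change was 0.42 ± 0.11. Untreated, FOXC1 was the higher of the pair per length (2.81 ± 0.28 against 2.51 ± 0.32 FPKM, ranges overlapping), and with TGF-β1 the order was turned (3.76 ± 0.26 against 4.97 ± 0.24 FPKM, ranges apart).

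FOXF1 and FOXF2, targets of Hedgehog signalling in gut and lung mesenchyme, parted. FOXF2 (ENSG00000137273, chromosome 6, 1389576 to 1395603, plus strand) had 4.44, 4.79 and 4.28 CPM untreated and 9.85, 8.61 and 8.33 CPM with TGF-β1, all TGF-β1 values above. Its log2 fold change was 0.99 ± 0.15 (SE). FOXF1 (ENSG00000103241, chromosome 16, 86510527 to 86515418, plus strand) had 29.7, 29.9 and 25.6 CPM untreated and 27.5, 26.4 and 27.1 CPM with TGF-β1. These ranges overlapped, and the log2 fold change of FOXF1 was -0.07 ± 0.08. FOXF1 was the more abundant of the 2 genes in both groups, at 7.85 ± 0.68 FPKM untreated against 1.78 ± 0.10 for FOXF2, and at 7.48 ± 0.16 FPKM with TGF-β1 against 3.55 ± 0.32.

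FOXD1, which marks stromal progenitors of the developing kidney, had the highest level of the 10 genes in every library. FOXD1 (ENSG00000251493, chromosome 5, 73444827 to 73448527, minus strand) measured 109.7, 110.2 and 112.5 CPM untreated and 129.3, 123.1 and 121.2 CPM with TGF-β1. The groups did not overlap, yet the difference was small, with a log2 fold change of 0.17 ± 0.04 (SE), and it shrank to 0.05 with library totals alone. Another annotated gene, FOXD1-AS1, covers 16.2% of the FOXD1 exonic bases, and it had 0 counts. Because the strand setting of the counting is not given, that 0 does not show whether FOXD1-AS1 was transcribed. FOXQ1 (ENSG00000164379, chromosome 6, 1312440 to 1314748, plus strand), best known from epithelia, was thinly counted, at 1.76, 1.21 and 2.07 CPM untreated and 1.33, 1.74 and 0.771 CPM with TGF-β1. Its ranges overlapped widely, and its log2 fold change was -0.38 ± 0.32.

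Of the FOXO factors, FOXO1 was higher with TGF-β1, and FOXO3 differed little. FOXO1 (ENSG00000150907, chromosome 13, 40469953 to 40666597, minus strand) had 6.42, 5.57 and 5.70 CPM untreated and 22.7, 18.6 and 22.9 CPM with TGF-β1. Every TGF-β1 value lay far above the untreated ones, with means of 5.90 ± 0.46 and 21.4 ± 2.39 CPM, a ratio of 3.63 and a log2 fold change of 1.86 ± 0.11 (SE), the next largest of the 10 genes after FOXS1. FOXO3 (ENSG00000118689, chromosome 6, 108559835 to 108684774, plus strand) had 64.5, 66.6 and 62.9 CPM untreated and 62.9, 54.3 and 57.9 CPM with TGF-β1. The highest TGF-β1 value of FOXO3 came up to the lowest untreated one, and the log2 fold change was -0.15 ± 0.05.

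The FOXO3 value also depends on how reads were shared with a copy. FOXO3B (ENSG00000240445, chromosome 17, 18670946 to 18672873, minus strand), a copy of part of FOXO3, shares 15.7% of the 50-base windows of FOXO3, and all other genes together bring the shared part to 27.8%. FOXO3B was assigned 161, 246 and 180 counts untreated and 271, 237 and 243 with TGF-β1, and it rose by 0.54 on the log2 scale (edgeR adjusted p = 3.26e-03), a call lost without untreated replicate 1 (0.39). Summed over both genes, the level was 69.6, 74.7 and 69.3 CPM untreated and 73.8, 62.6 and 67.2 CPM with TGF-β1, where the groups overlapped, and the log2 fold change was -0.07. FOXO3 alone missed the threshold in 7 of 17 other settings, among them those that left out untreated replicate 1 (-0.16), untreated replicate 2 (-0.13), TGF-β1 replicate 2 (-0.10) or TGF-β1 replicate 3 (-0.14). FOXO3 and FOXO3B are therefore given as uncertain.

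FOXP1 was higher with TGF-β1, with little scatter within the TGF-β1 group. FOXP1 (ENSG00000114861, chromosome 3, 70952817 to 71583993, minus strand) had 34.5, 29.9 and 29.6 CPM untreated and 70.8, 71.6 and 73.3 CPM with TGF-β1. The groups were far apart, at means of 31.3 ± 2.77 and 71.9 ± 1.30 CPM, a ratio of 2.30 and a log2 fold change of 1.20 ± 0.06 (SE). FOXP1 has 76 annotated transcripts whose exons cover 36714 bases together, the length the deposited FPKM divides by, against 8994 bases in its longest coding transcript.

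In untreated libraries the order per length was FOXD1 (41.1 FPKM), FOXO3 (8.14), FOXF1 (7.85), FOXC1 (2.81), FOXC2 (2.51), FOXF2 (1.78), FOXO1 (0.920), FOXP1 (0.829), FOXQ1 (0.707) and FOXS1 (0.0570). The ranges of the neighbours FOXO3 and FOXF1, FOXC1 and FOXC2, FOXO1 and FOXP1, and FOXP1 and FOXQ1 overlapped. With TGF-β1 the order was FOXD1 (46.2 FPKM), FOXS1 (9.37), FOXF1 (7.48), FOXO3 (7.36), FOXC2 (4.97), FOXC1 (3.76), FOXF2 (3.55), FOXO1 (3.35), FOXP1 (1.91) and FOXQ1 (0.541), with overlap between FOXF1 and FOXO3, FOXC1 and FOXF2, and FOXF2 and FOXO1. If the longest coding transcript was used as the length, an alternative added after seeing the data, FOXP1 moved from place 8 to place 4 untreated (3.38 FPKM) and from place 9 to place 3 with TGF-β1 (7.79 FPKM).

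The 10 genes together went from 66.6 ± 0.77 to 88.5 ± 3.74 FPKM (SD, n = 3 each). FOXS1 made up 0.0856% ± 0.0528 of that sum in untreated libraries and 10.5% ± 0.50 with TGF-β1, while FOXD1 went from 60.7% to 63.3% down to 51.7% to 53.3%. Within the summed FPKM of all 49 forkhead genes, the 10 genes held 34.9% to 35.1% untreated and 40.7% to 41.4% with TGF-β1. TGF-β1 replicate 1 was the highest of its group for 6 of the 10 genes.

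**Figure D2:**
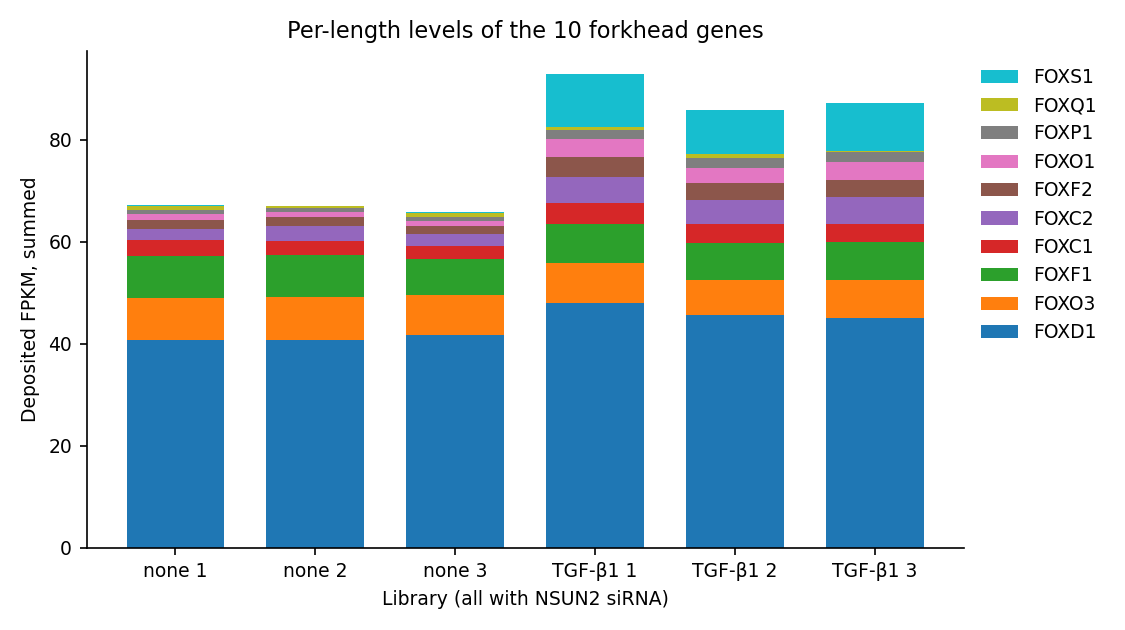
Deposited FPKM of the 10 genes stacked for each library, with 3 untreated libraries on the left and 3 TGF-β1 libraries on the right. FOXD1 is the broadest band throughout, and the FOXS1 band at the top makes up 10.5% of the TGF-β1 bars on average and is too thin to see in the untreated bars.

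Among the 39 other forkhead genes of the table, 20 were tested, of which 4 rose and 5 fell, with a median log2 fold change of -0.06. These counts are near the shares of all tested genes, 20.2% higher and 18.7% lower. FOXP4, which pairs with FOXP1, rose by 0.52 ± 0.04 (SE), from 75.9 ± 1.91 to 108.6 ± 3.80 CPM (SD, n = 3; edgeR adjusted p = 5.98e-13). FOXE1, a thyroid factor, rose by 0.56 ± 0.16 from 4.61 ± 0.44 to 6.78 ± 0.69 CPM (edgeR adjusted p = 4.10e-03). The broadly expressed FOXK2 and FOXJ3 rose by 0.24 and 0.23 on the log2 scale. The steepest fall was that of FOXA2, a pioneer factor of endoderm and liver epithelium, with 27, 34 and 20 counts untreated and 0, 4 and 1 with TGF-β1. That is 14.3 times lower with TGF-β1, with an exact 95% interval of 5.89 to 45.3 for counting error (edgeR adjusted p = 1.81e-05).

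FOXM1, the proliferation-linked forkhead factor and by mean FPKM the most abundant of the family, fell by 0.11 from 260.3 ± 7.09 to 241.9 ± 5.64 CPM (edgeR adjusted p = 0.0108), and FOXL1 fell by 0.23 from 28.7 ± 2.34 to 24.5 ± 1.59 CPM (edgeR adjusted p = 0.0185). Both are small changes: the FOXM1 call was lost without untreated replicate 2 or TGF-β1 replicate 2 (-0.09 each), and the FOXL1 call without untreated replicate 1 (-0.16), TGF-β1 replicate 2 (-0.21) or TGF-β1 replicate 3 (-0.19). FOXO6 fell by 0.69 ± 0.27 in the same test (edgeR adjusted p = 0.041), yet its groups overlapped, and DESeq2 and limma-voom gave adjusted p = 0.0623 and 0.0513. Its call was also lost without untreated replicate 2 (-0.58), untreated replicate 3 (-0.65), TGF-β1 replicate 2 (-0.55) or TGF-β1 replicate 3 (-0.62). The remaining 11 tested genes did not pass: log2 fold changes were 0.06 for FOXK1, -0.07 for FOXN3, -0.02 for FOXJ2, 0.19 for FOXN2, -0.25 for FOXO4, -0.06 for FOXL2, 0.08 for FOXD2, 0.26 for FOXD4, -0.14 for FOXA1, -0.08 for FOXP3 and -0.41 for FOXD4L1. FOXN2 passed at 0.30 without TGF-β1 replicate 2. FOXD4 and FOXD4L1 belong to a set of near-identical copies and are uncertain. FOXH1, a SMAD partner of early embryos, had 21 counts over the 6 libraries, FOXD4L3 21 and FOXB2 11, too few to be tested, and a further 7 forkhead genes had 1 to 9 counts and 9 had 0.

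**Figure D3:**
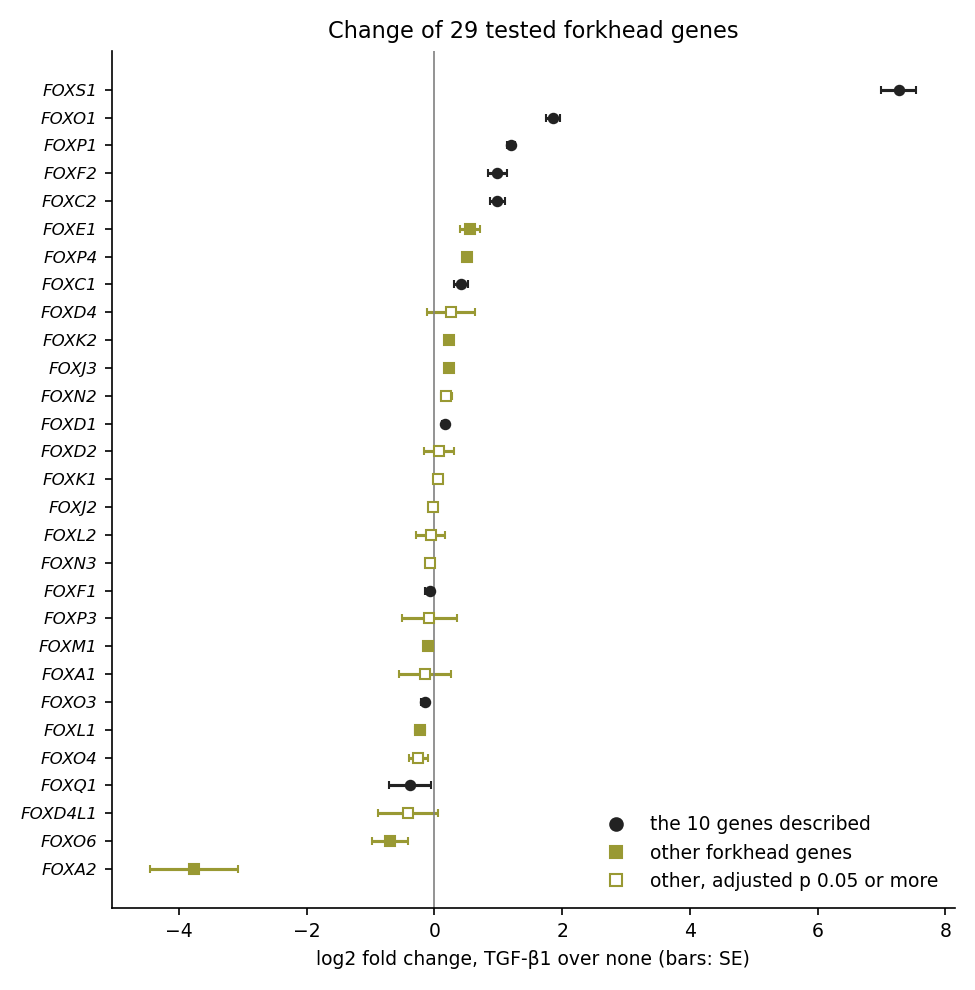
Log2 fold change (TGF-β1 over none) with its standard error for 29 of the 30 tested forkhead genes. Black circles are the 10 genes described, filled whatever their adjusted p, FOXF1 and FOXQ1 included, which did not pass. Squares are the other forkhead genes, and a square is open where the edgeR adjusted p was 0.05 or more. FOXS1 stands apart at 7.27, with a bar narrower than its counting error, and FOXA2 at -3.75. The other 27 genes shown lie between -0.69 and 1.86.

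Several of the genes lie in 2 forkhead clusters of the genome, where neighbouring genes had unlike values. Along chromosome 16, FOXF1, FOXC2 and FOXL1 lie within 71.6 kb, and their log2 fold changes were -0.07, 0.98 and -0.23. MTHFSD, which lies between FOXF1 and FOXC2, was at -0.04 ± 0.09 and did not pass. Along chromosome 6, FOXQ1, FOXF2 and FOXC1 lie within 301.5 kb and their log2 fold changes were -0.38, 0.99 and 0.42, FOXQ1 with overlapping groups. GMDS, on the far side of FOXC1 at a gap of 9.91 kb, was at -0.22 ± 0.11 and did not pass.

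**Figure D4:**
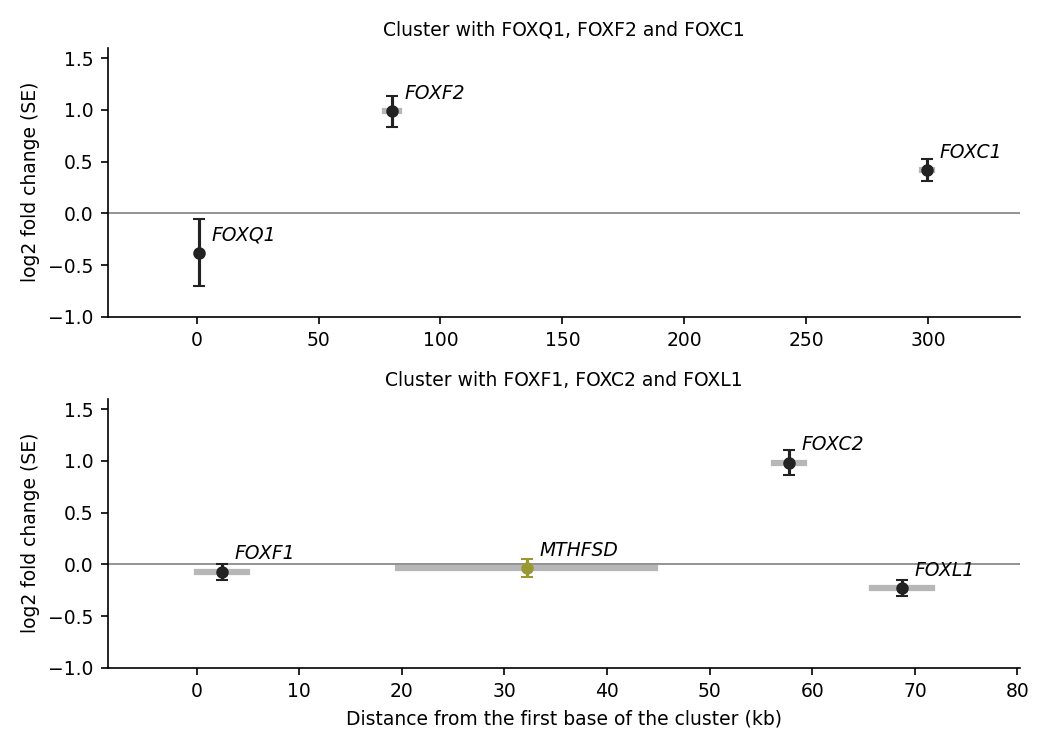
Log2 fold change with standard error of the tested genes in the 2 forkhead clusters against distance from the first base of each cluster in kb; grey bars are gene bodies, and the olive point is MTHFSD. FOXC2 at 0.98 lies between MTHFSD at -0.04 and FOXL1 at -0.23.

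Both genes flanking FOXS1 rose. DUSP15, a dual-specificity phosphatase gene that ends 2.02 kb from FOXS1, rose by 0.69 ± 0.12 on the log2 scale (SE), from 7.84 ± 0.75 to 12.6 ± 1.33 CPM (SD, n = 3; edgeR adjusted p = 1.13e-05). MYLK2, the skeletal muscle myosin light chain kinase, at a gap of 9.61 kb, rose by 0.75 ± 0.21, from 2.45 ± 0.27 to 4.12 ± 0.88 CPM (edgeR adjusted p = 4.16e-03). These changes were much smaller than the log2 difference of 7.27 of FOXS1. On the other side of the FOXP1 start, at 0.95 kb and on the opposite strand, the long noncoding RNA AC097634.1 (ENSG00000270562, chromosome 3, 71584943 to 71587409, plus strand) had 0 counts in each untreated library and 22, 22 and 25 with TGF-β1. It was at least 26.04-fold higher, reckoned against a floor of 3 counts over the untreated group (edgeR adjusted p = 1.90e-07). MITF, the nearest tested gene beyond the other end of FOXP1, fell by 1.82 ± 0.11, from 24.3 ± 1.27 to 6.87 ± 0.98 CPM (edgeR adjusted p = 2.80e-18), at a gap of 984 kb.

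FENDRR, a noncoding RNA read away from the FOXF1 start at 1.43 kb, had 39, 36 and 27 counts untreated and 6, 27 and 16 with TGF-β1, and did not pass (log2 fold change -0.89 ± 0.43), but passed at -1.38 without TGF-β1 replicate 2. Next to FOXD1, TMEM171 fell by 1.52 ± 0.23 (edgeR adjusted p = 6.24e-07) at a gap of 313 kb, and AC099522.2 was at 0.59 ± 0.58. COG6, left of FOXO1, rose by 0.11 ± 0.04 (edgeR adjusted p = 0.0257), which turned to -0.01 with library totals alone and lost its call without untreated replicate 2 or TGF-β1 replicate 1 (0.09 each). MRPS31 (0.08), AFG1L (-0.46), ARMC2 (-0.11) and AL357054.4 (-0.19), the remaining nearest tested neighbours, did not pass, although AFG1L passed without untreated replicate 1 (-0.56). Noncoding genes starting on the opposite strand near FOXC2 (FOXC2-AS1), FOXD1 (LINC01385), FOXF2 (AL034346.1, MIR6720), FOXO3 (AL391646.1) and FOXP1 (AC097634.3) had 0 to 17 counts over the 6 libraries and were not tested.

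The RefSeq start windows (GRCh38.p14, 250 bases before to 50 after the start) matched 7 of the 10 genes, namely FOXC1, FOXD1, FOXF2, FOXO1, FOXO3, FOXP1 and FOXQ1. Upstream sequence of FOXO1 and FOXF2, which were both higher with TGF-β1, is shown with its CG dinucleotides in capitals. The FOXO1 stretch is chr13:40666642-40666891 on the minus strand, and the FOXF2 stretch is chr6:1389326-1389575 on the plus strand.
FOXO1: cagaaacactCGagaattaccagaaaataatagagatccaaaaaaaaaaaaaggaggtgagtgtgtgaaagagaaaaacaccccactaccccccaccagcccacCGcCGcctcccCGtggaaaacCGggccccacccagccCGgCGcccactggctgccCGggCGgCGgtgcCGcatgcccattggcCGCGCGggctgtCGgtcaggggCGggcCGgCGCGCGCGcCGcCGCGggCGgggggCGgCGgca
FOXF2: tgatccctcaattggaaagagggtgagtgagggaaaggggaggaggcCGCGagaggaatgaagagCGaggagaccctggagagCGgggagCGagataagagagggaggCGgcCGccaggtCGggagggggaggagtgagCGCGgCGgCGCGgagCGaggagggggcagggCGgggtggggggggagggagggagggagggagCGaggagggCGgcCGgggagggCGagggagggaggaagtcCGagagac
These stretches hold 27 and 20 CG dinucleotides. Over the full windows, the 7 genes had 59.7% to 78.3% GC and 16 to 47 CG dinucleotides, against medians of 58.7% and 14 in all 35116 windows of the table. FOXD1 had the lowest values of the 7, and FOXO3 the highest. For FOXD1, FOXP1 and FOXQ1 the RefSeq start lay 250, 265 and 342 bases from the annotated gene start. Their windows may therefore not be the promoters of the counted transcripts.
Both strands of the windows were searched for the forkhead motifs GTAAACA and GTAAATA, the SMAD motifs GTCTAGAC and CAGACA, the AP-1 motif TGACTCA, the GLI motif GACCACCCA and the TATA motif TATAAA. These letters occur in 3.42%, 2.67%, 0.202%, 16.9%, 4.95%, 0.236% and 11.5% of all windows. A single match was found in the 7 windows, CAGACA in FOXD1, and no match says only that these letters are not in this stretch.

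Genes of the pathways in which these factors act were counted from lists made with earlier results of these data known, and their shares are read beside the 20.2% higher and 18.7% lower of all tested genes. The insulin and PI3K-AKT list, the route that holds FOXO proteins in the cytoplasm, had 5 genes higher and 6 lower of 19 tested, with a median log2 fold change of 0.00. The receptor IGF1R rose by 0.88, from 77.0 to 141.9 CPM, the kinases AKT1 and PDPK1 by 0.20 and 0.23, and the phosphatase INPP4B by 0.53. The adaptor IRS1 fell from 102.4 to 58.1 CPM (-0.82) and the kinase SGK3 from 7.08 to 3.73 CPM (-0.92). With library totals alone the counts were 3 and 10, AKT1 (0.08) and PDPK1 (0.11) no longer passed, and PDPK1 was also lost without untreated replicate 2 (0.16).

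Of 18 tested genes for other FOXO regulators and 14-3-3 proteins, which bind phosphorylated FOXO, 9 were higher and 5 lower (median 0.08), and 4 and 7 with library totals alone. The deubiquitinase USP7 rose by 0.45 and the 14-3-3 gene YWHAG by 0.36. The ubiquitin ligase genes MDM2 (-0.33) and SKP2 (-0.29), the Hippo kinase genes STK4 (-0.30) and STK3 (-0.28) and the deacetylase gene SIRT1 (-0.26) fell, STK3 losing its call without TGF-β1 replicate 2 (-0.23).

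While FOXO1 RNA was higher, most genes of the FOXO target list were lower: 3 rose and 15 fell of 24 tested, with a median of -0.34. The 3 that rose were PIK3IP1, an inhibitor of PI3K (3.57 to 12.5 CPM, log2 fold change 1.81 ± 0.14 SE, edgeR adjusted p = 1.92e-14), FBXO32, the atrogin-1 ubiquitin ligase (12.96 to 28.6 CPM, 1.14 ± 0.09, adjusted p = 1.40e-14), and the autophagy gene GABARAPL1 (31.9 to 42.6 CPM, 0.42 ± 0.07). S1PR1, a sphingosine 1-phosphate receptor, fell by 1.99 ± 0.09 from 41.5 to 10.4 CPM (edgeR adjusted p = 4.92e-23), and CITED2, a coregulator of CBP and p300, fell by 1.80 ± 0.05 from 125.5 to 35.9 CPM (edgeR adjusted p = 1.26e-28). FOXO activity was not measured, and many of these genes have other known regulators.

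Genes that FOXO and SMAD proteins are known to induce together had 4 higher and 1 lower of 6 tested, with a median of 1.35. They were the Notch ligand JAG1 (40.7 to 579.0 CPM, log2 fold change 3.83 ± 0.04), CTGF (175.5 to 901.6 CPM, 2.36 ± 0.03), GADD45B (31.4 to 138.3 CPM, 2.14 ± 0.05) and CDKN2B, the p15 inhibitor (15.2 to 22.3 CPM, 0.56 ± 0.09). GADD45A fell by 0.19 ± 0.03. CDKN1A, the remaining tested gene, had a log2 fold change of -0.09 ± 0.04 and did not pass, though all its TGF-β1 values lay below the untreated ones. The lower count was 2 of the 6 without untreated replicate 2. It was also 2 with upper-quartile factors, library totals alone or a filter of 1 CPM in 3 libraries.

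Of 12 SMADs and SMAD corepressors, 8 were higher and 2 lower, with a median of 0.24. The inhibitory SMAD7 rose by 2.40 and the corepressor SKIL by 1.90. Among the signal-carrying SMADs, SMAD3 fell by 0.43, from 306.5 to 227.4 CPM, and SMAD9 by 0.42. SMAD1 (0.42, edgeR adjusted p = 0.0461), SMAD5 (0.19) and SMAD2 (0.15) rose, SMAD2 with overlapping groups, and SMAD4 (0.07) did not pass. With library totals alone 5 were higher, and 1 was lower without untreated replicate 3 or TGF-β1 replicate 2, where SMAD9 lost its call (-0.35 and -0.34).

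The Hedgehog list, known to lie upstream of FOXF genes, had 3 higher and 0 lower of 12 tested (median 0.17), with 0 lower also at an unadjusted p under 0.05 and by DESeq2 or limma-voom, and with 1 lower by upper-quartile factors and 3 by library totals alone. HHIP, a Hedgehog-binding antagonist, rose by 3.09 ± 0.23 from 0.803 to 6.85 CPM (edgeR adjusted p = 4.24e-15). The effector GLI2 rose by 0.96 ± 0.06 and KIF7 by 0.21 ± 0.06, the last losing its call with library totals alone (0.10). GLI1 (0.26) and PTCH1 (-0.17), both with overlapping groups, did not pass, PTCH1 at an unadjusted edgeR p of 0.053. SMO and GLI3 (-0.09 each) did not pass either. Among 13 pericyte and mural cell genes, a cell type in which FOXS1 is known, 3 rose and 3 fell (median 0.00): PDGFRB by 1.75, NOTCH3 by 1.16 and TBX2 by 0.80, against TBX18 (-0.21), ABCC9 (-0.14) and MCAM (-0.12). ABCC9 was lost without untreated replicate 3 (-0.13) or TGF-β1 replicate 1 (-0.10), and 5 genes of the list were lower with library totals alone. RGS5, another mural marker, was at 1.85 and 1.79 CPM and did not pass.

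**Figure D5:**
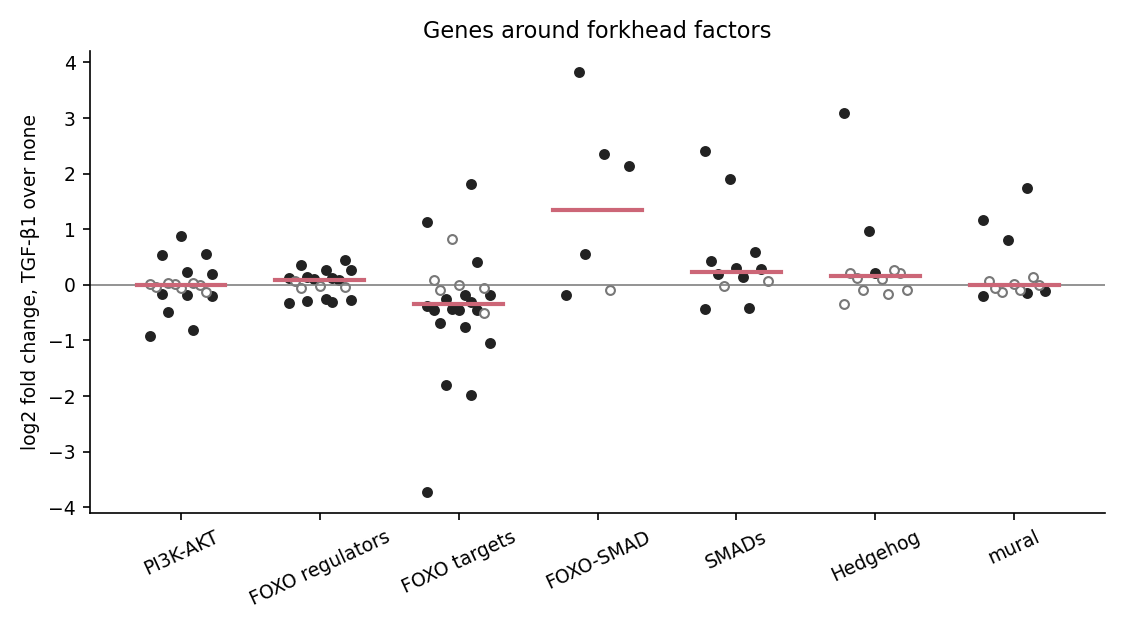
Log2 fold change (TGF-β1 over none) of the tested genes in 7 lists around the forkhead factors; filled points passed the edgeR threshold, open points did not, and red bars are list medians. The FOXO target list has its median at -0.34 and the FOXO-SMAD list at 1.35.

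Among the 5 genes most like FOXS1 over the 6 libraries, by Pearson correlation of log2 CPM among protein-coding genes of at least 5 CPM, were FMNL3 (r = 0.9995), PTRH2 (0.9994), VASN (0.9994) and PDGFB (0.9994). These 6 points are 2 groups of 3 and share the step between them, and 431 of 10579 genes exceeded 0.99. The size of change was not shared: FMNL3 differed by 0.87, PTRH2 by 0.23, VASN by 1.32 and the growth factor gene PDGFB by 2.78 on the log2 scale, against 7.27 for FOXS1.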

How the data were processed

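The deposited table holds, per gene, whole-number read counts and FPKM values that the authors made from the sequenced RNA. The tools named for the reads are HISAT2 2.2.1 and fastp, on build hg38, per the submitters' processing notes. The counting tool, its strand setting and its annotation, not given in the sources used here, decide whether reads of antisense or overlapping genes are mixed. Another 6 per-sample columns in each table were not used. The series' design text names NAT10 as well as NSUN2 for the siRNA, and the sample labels were followed.

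Counts were tested with edgeR 4.0.16 in R 4.3.3 (quasi-likelihood, TMM, filterByExpr with a minimum count of 10 and a minimum total of 15, group as the sole term). This left 17215 genes, adjusted together, and the steps were checked on simulated counts. DESeq2 1.42.0 and limma 3.58.1 were alternatives. Replicates differed by more than sampling noise (chi-square per degree of freedom 3.66 to 4.86), so no library is a copy of another. The deposited FPKM uses library sizes of 1.07 to 1.075 times the total count untreated and 0.984 to 0.987 times with TGF-β1.

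The 10 genes and all gene lists were chosen with earlier results of these data known. Named besides them are forkhead genes with at least 10 counts, up to 4 called genes per list with the largest change at a mean of at least 5 CPM, all called genes of a direction with 5 or fewer, the nearest tested neighbours with opposite-strand noncoding genes starting within 10 kb, and the 5 genes most like FOXS1. PMEPA1, ODAPH, KANK4, RGS5, FOXO3B, CDKN1A, SMAD1, SMAD2, SMAD4, SMAD5, GLI1, GLI3, PTCH1 and SMO were named after their values were seen. A few results that these rules would name are not reported here. Gene positions follow the table and GENCODE 29, and start windows follow RefSeq.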

Additional observations from a re-analysis of the deposited data

How the results depend on the processing

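The 10 genes were selected on this contrast, so their calls under other settings are a description. The log2 difference of FOXS1 ranged from 3.29, with log2(FPKM + 1), to 7.83. Library totals alone moved the median of all tested genes from -0.01 to -0.13. With them 2022 genes were higher and 5352 lower, 2 of the 10 genes were lower, and FOXF1 passed (-0.19), FOXD1 did not (0.05) and COG6 reversed (-0.01). Limma on log2(FPKM + 1) without a filter gave 1978 lower in all. All 3 FPKM settings gave 0 of the 10 genes lower, and 1, 2 and 2 of the other forkhead genes. On the same values 5 SMAD list genes were higher and 1 lower, and without a filter 3 PI3K-AKT and 1 mural genes were lower. Leaving out each library in turn gave 0 to 1 of the 10 genes lower and 2 to 5 of the other forkhead genes. Libraries of the same replicate number were no more alike (correlations -0.01 to 0.01) than those of different numbers (-0.022 to 0.026). A weak pairing could be missed by this check. With the replicate block 3431 genes were higher and 3182 lower, 7 and 1 of the 10 genes, and FOXO6 lost its call. Over 72 of the other named genes, 1136 of 1199 values gave the same call, 54 lost it, 8 gained it and 1 reversed. Summing FOXO3 with FOXO3B and dividing by the longest coding transcript were chosen after seeing the data. With 3 libraries a group, FOXQ1 and the sparse FOXA2, FOXD4 and FOXP3 are limited by depth.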
